A study of Mus musculus with 20 samples.

Results

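The 10 genes described here encode the main components of basement membranes: the type IV collagen chains Col4a1 and Col4a2, the laminin chains Lama2, Lama4, Lamb1 and Lamc1, the nidogens Nid1 and Nid2, the heparan sulfate proteoglycan perlecan (Hspg2) and the type XVIII collagen Col18a1. They were taken by gene symbol from expression tables of 24347 genes each. The rule uses no measured value, but the set was chosen with earlier results of these data known. All 10 were found in the 12 tables and all 10 were among the 12938 genes tested.

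Basement membranes are thin extracellular sheets that underlie endothelium and surround adipocytes, muscle fibres and Schwann cells. Laminins are heterotrimers of an alpha, a beta and a gamma chain. Many of them polymerize at the cell surface, where integrins and dystroglycan are laminin receptors. A network of type IV collagen lies over them, and nidogens and heparan sulfate proteoglycans join both layers. In bone marrow, perivascular stromal cells lie along the sinusoids and contribute laminins, nidogens and type IV collagen to the vascular matrix near which blood stem cells reside.

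RNA was measured in 4 groups of 3 libraries from stromal cells sorted from the bone marrow of mouse femora and tibiae (strain C57BL/6). CAR cells (CXCL12-abundant reticular cells) were sorted as PDGFRα+ and Sca1- cells after CD45+, CD31+ and Lin+ cells had been gated out. PaS cells, a population of mesenchymal progenitors, were sorted the same way but as Sca1+. In each population, wt libraries had the genotype Ebf1+/+;Prx1+/cre and ko libraries the genotype Ebf1fl/fl;Prx1+/cre, so the Prx1-driven Cre recombinase, which is active in limb bud mesenchyme and its descendants, was present in all 4 groups. Ebf1 encodes a transcription factor of B cells and mesenchymal cells, and the labels give neither the age of the mice nor whether animals were pooled or separate, so a p-value here reflects only how far these libraries scatter, which may be technical.

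The values, in FPKM, are fragment numbers scaled to transcript length and library size. Levels of different genes are set side by side on that scale, but how evenly long transcripts were covered was not tested. Summed FPKM ran from 491801 to 526074 per library and the read depth is unknown. One library, PaS wt replicate 1, had 24.6% of its genes listed at 0, whereas the remaining 11 libraries had 33.3% to 37.0%. The separation by Sca1 was visible in the RNA. Ly6a, which encodes Sca1, had 4.66 ± 0.815 FPKM across CAR wt and 1963 ± 218 FPKM across PaS wt libraries, and Cxcl12 had 13251 ± 377 and 4277 ± 84.8 FPKM. Genes of the cells gated out were not absent. Ptprc, which encodes CD45, had 6.46 ± 1.36 FPKM across CAR wt and 11.8 ± 2.66 FPKM across PaS wt libraries. Pecam1, which encodes CD31, had 1.67 ± 0.349 and 5.67 ± 0.429 FPKM. Ebf1 itself had 48.9, 48.5 and 46.8 FPKM in CAR wt, 56.0, 56.7 and 59.8 in CAR ko, 55.0, 62.1 and 50.5 FPKM across the PaS wt libraries and 65.0, 61.9 and 60.7 FPKM across the PaS ko ones. It was not lower in ko libraries and in CAR cells it was called higher, by 0.25 (limma adjusted p = 0.040) on the log2 scale. Since a whole-gene value can include exons outside a deleted part it does not check the labels, so ko below means the libraries labelled ko.

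The members lie on 7 autosomes, and the start regions of Nid1 and Col18a1 are shown. On GRCm38.p6, the RefSeq assembly that corresponds to the mm10 build of the files, Col4a1 (chromosome 8, 11198423 to 11312889) and Col4a2 (chromosome 8, 11312805 to 11449287) are divergent neighbours whose annotated spans share 85 bases at their starts. The counting is not stated to use strand, so reads of that shared stretch cannot be assigned to either gene. Nid1 lies on chromosome 13 (13437602 to 13512275), Col18a1 on chromosome 10 (77052178 to 77166530), Lamc1 on chromosome 1 (153218922 to 153332786), Lama4 on chromosome 10 (38965515 to 39110188), Lama2 on chromosome 10 (26981285 to 27617191), Lamb1 on chromosome 12 (31265146 to 31329644), Nid2 on chromosome 14 (19751257 to 19811787) and Hspg2 on chromosome 4 (137468751 to 137570630). The 250 bases before the start of Nid1 and of Col18a1 are given here 5′ to 3′ on the gene's own strand. These windows were printed because they overlap no annotated gene other than a pseudogene. Nid1 and Col18a1 were also the members with the largest ko minus wt differences in PaS cells. Nid1 is at chr13:13437352-13437601 on the plus strand, of which part is also annotated as a pseudogene, and Col18a1 at chr10:77166531-77166780 on the minus strand, from RefSeq. Capitals mark matches to the GC box GGGCGG on either strand.

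Nid1: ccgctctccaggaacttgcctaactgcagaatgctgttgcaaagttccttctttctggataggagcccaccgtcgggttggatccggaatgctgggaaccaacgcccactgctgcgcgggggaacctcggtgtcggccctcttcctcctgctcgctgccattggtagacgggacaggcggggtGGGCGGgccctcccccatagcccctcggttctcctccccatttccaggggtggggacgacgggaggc

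Col18a1: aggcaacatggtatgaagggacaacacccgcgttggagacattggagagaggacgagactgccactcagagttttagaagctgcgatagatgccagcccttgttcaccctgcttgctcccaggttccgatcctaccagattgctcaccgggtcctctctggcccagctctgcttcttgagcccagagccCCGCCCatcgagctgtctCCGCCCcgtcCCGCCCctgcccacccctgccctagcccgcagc

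The Nid1 stretch held 1 GC box and the Col18a1 stretch held 3, and 32.7% of 32851 RefSeq start regions of this length hold at least 1. Among the other start regions at hand, that of Hspg2 held 5 and those of Col4a2 and Lamb1 held 2 each. Those of Col4a1, Lama2 and the other Col18a1 start site held none. CCCNNGGG, the core letters of the EBF recognition palindrome, was present once before Col4a2 and once before Hspg2, among 8 start regions listed for 7 members (Col4a1, Col4a2, Lama2, Lamb1, Nid1, Hspg2 and Col18a1, the last with 2 start sites), and in 11.8% of all such regions. The longer form of this core, with a T before and an A after it, was in none of the 8 and in 0.779% of all regions. These matches describe letters only.

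The first question is how the levels of the members are ordered in each population. In CAR wt libraries the highest level was that of Col4a1, the alpha1 chain of the common type IV collagen network, at 123 ± 8.13 FPKM (SD, n = 3, as throughout). Nid1, the glycoprotein nidogen-1 that links laminin to type IV collagen, followed at 70.3 ± 3.15 FPKM and Col4a2, the partner chain of Col4a1, at 66.1 ± 3.09 FPKM, with overlapping ranges. Lamb1, the beta1 chain of laminin, came next at 46.4 ± 7.05 FPKM. Nid2 at 34.1 ± 2.76 FPKM, Lama4 at 33.2 ± 2.41 FPKM and Lamc1 at 32.6 ± 2.26 FPKM overlapped with their neighbours in this order. Col18a1 at 7.47 ± 1.08 FPKM, Hspg2 at 3.96 ± 0.554 FPKM and Lama2 at 1.39 ± 0.288 FPKM were lowest and did not overlap with each other. The order in CAR ko libraries was the same, with the same neighbours overlapping.

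In PaS wt libraries the order differed at the top and in the middle. Nid1 was highest at 225 ± 3.78 FPKM, above Col4a1 at 159 ± 4.12 FPKM and Col4a2 at 83.6 ± 5.22 FPKM. Lamc1 and Lama4, the gamma1 and alpha4 chains found together in vascular laminins, had 60.4 ± 3.57 and 55.1 ± 2.54 FPKM, and these were the only neighbours whose ranges overlapped. Lamb1, Col18a1, Nid2, Hspg2 and Lama2 followed. In PaS ko libraries the ranges of Nid1 and Col4a1 overlapped, at 133 ± 3.58 and 122 ± 8.12 FPKM, and so did those of Lama4 and Lamc1 and of Nid2 and Col18a1. Summed over the 10 genes, the level was 419 ± 24.4 FPKM for CAR wt, 367 ± 9.82 FPKM for CAR ko, 687 ± 17.8 FPKM for PaS wt and 473 ± 10.8 FPKM for PaS ko libraries.

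**Figure D1:**
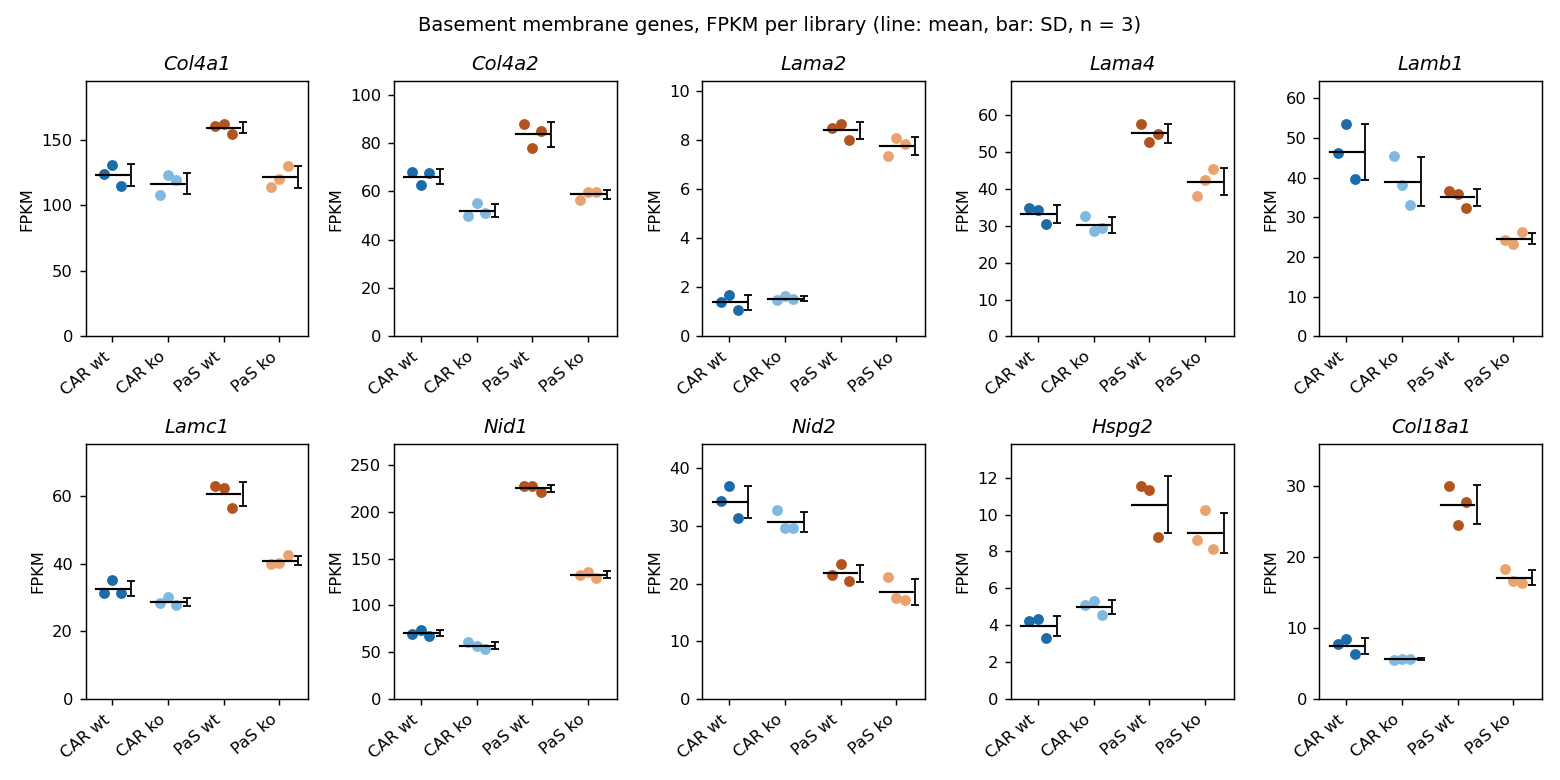
FPKM of the 10 basement membrane genes in each of the 12 libraries, in 4 groups of 3; each panel has its own linear axis from 0, the horizontal line is the group mean and the bar its SD. Nid1 sits at 221 to 227 FPKM in PaS wt, at 129 to 136 FPKM in PaS ko and at 53.1 to 73.7 FPKM in all CAR libraries.

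The main comparison asks how the basement membrane genes differ with the Ebf1 genotype in PaS cells. In ko libraries 7 of the 10 members were lower and none was higher, and for the same 7 the wt and ko libraries did not overlap. Among all tested genes 4.03% were called lower and 3.41% higher in this comparison, and 23.4% had groups that did not overlap. A gene was called at an adjusted p under 0.05 in limma's moderated test with Benjamini-Hochberg adjustment over all 12938 genes, on log2(FPKM + 1). The members' median log2 fold change was -0.44, against 0.00 for all tested genes, and all 10 estimates were below 0. These counts describe genes chosen for their shared function, not independent draws.

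Both nidogens were measured. Nid1 had 227, 227 and 221 FPKM in the 3 PaS wt libraries and 133, 136 and 129 FPKM in the 3 PaS ko libraries. Every ko library lay far below every wt library, the mean fell by 41%, and the log2 fold change was -0.76 (SE 0.06; limma adjusted p = 1.4e-06). Nid2, the second nidogen, had 21.5, 23.3 and 20.5 FPKM across wt and 21.2, 17.5 and 17.1 FPKM across ko libraries. Its groups overlapped, with ko replicate 1 within the wt range, and the log2 fold change was -0.22 (95% confidence interval -0.43 to -0.01, adjusted p = 0.22).

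Among the type IV collagen chains, Col4a1 had 161, 162 and 155 FPKM across the PaS wt libraries and 114, 120.3 and 130.4 FPKM across the PaS ko ones. The groups did not overlap and the log2 fold change was -0.39 (SE 0.07; limma adjusted p = 0.0024). Col4a2 had 88.0, 77.9 and 85.0 FPKM across wt and 56.5, 59.7 and 59.9 FPKM across ko libraries. Its groups did not overlap either, at -0.50 (SE 0.07; limma adjusted p = 2.2e-04) on the log2 scale. Col18a1, whose carboxyl-terminal fragment is endostatin, had 29.9, 24.4 and 27.7 FPKM across wt and 18.2, 16.6 and 16.4 FPKM across ko libraries. Its log2 fold change of -0.65 (SE 0.11; limma adjusted p = 0.0018) was the second largest of the members.

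Of the laminin chains, Lamc1, the gamma1 chain shared by most laminins, had 62.8, 62.2 and 56.3 FPKM across the PaS wt libraries and 39.8, 40.2 and 42.4 FPKM across the PaS ko ones. No ko library reached the wt range, and the log2 fold change was -0.55 (SE 0.08; limma adjusted p = 1.8e-04). Lama4, the alpha4 chain of endothelial and perivascular laminins, had 57.8, 52.7 and 54.9 FPKM across wt and 38.1, 42.5 and 45.5 FPKM across ko libraries (a log2 difference of -0.39, adjusted p = 0.0098). Lamb1 had 36.6, 36.0 and 32.5 FPKM across wt and 24.4, 23.4 and 26.2 FPKM across ko libraries (a log2 difference of -0.49, adjusted p = 0.017). Both groups were separate for Lama4 and for Lamb1, but these calls were the least firm. That of Lama4 was lost without PaS wt replicate 1 (adjusted p = 0.051) and without PaS ko replicate 1 (adjusted p = 0.055), and its adjusted p over all alternatives ran from 0.0072 to 0.055. That of Lamb1 was lost without a filter on low values (adjusted p = 0.060) and without PaS wt replicate 1 or 2 or PaS ko replicate 1 or 2 (adjusted p = 0.053 to 0.069), over a range from 0.0063 to 0.069. Lama2, the alpha2 chain typical of muscle and nerve, had 8.51, 8.67 and 8.01 FPKM across wt and 7.35, 8.08 and 7.85 FPKM across ko libraries, with overlapping groups and a log2 fold change of -0.10 (95% confidence interval -0.39 to 0.19, adjusted p = 0.75). Hspg2, the large proteoglycan that binds laminin and growth factors, had 11.5, 11.3 and 8.76 FPKM across wt and 8.63, 10.2 and 8.14 FPKM across ko libraries. Its groups overlapped as well, and the log2 fold change was -0.20 (95% confidence interval -0.50 to 0.10, adjusted p = 0.49).

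Genes listed as markers of other cell types, and of the sorted populations, were read in the same libraries. Which cells their transcripts came from was not tested. The summed level of 12 blood-cell markers was 20931 to 24012 FPKM across PaS wt and 8219 to 8515 FPKM across PaS ko libraries, with 6 of the 12 called lower and 2 higher, and every marker was at 1 FPKM or more in at least 1 library of each group. The 12 endothelial markers summed to 99.6 to 112 FPKM across PaS wt and 90.7 to 98.6 FPKM across PaS ko libraries, with 1 of 11 tested called lower, the angiopoietin receptor Tek, from 21.0 ± 2.93 to 8.31 ± 1.88 FPKM. The defining endothelial cadherin Cdh5 was at 1.54 ± 0.284 and 1.11 ± 0.0794 FPKM. The 11 pericyte and smooth muscle markers summed to 47.8 to 51.2 FPKM across PaS wt and 64.7 to 70.5 FPKM across PaS ko libraries, with 3 of 10 tested called higher (Tagln, Acta2 and Rgs5). Skeletal muscle markers summed to at most 12.9 FPKM in any library, with Ckm, Myh1 and Myh4 below 1 FPKM in every library. The 7 Schwann cell markers summed to 29.4 to 34.2 FPKM across PaS wt and 35.0 to 37.3 FPKM across PaS ko libraries. Most of that sum was S100b, at 26.9 ± 2.42 and 32.6 ± 1.19 FPKM. Of 3 tested, Mbp was called lower, from 2.82 ± 0.814 to 1.28 ± 0.531 FPKM, and Cdh19 and S100b were not called, while Sox10 and Gfra3 were below 1 FPKM in all 12 libraries. The 8 adipocyte markers summed to 602 to 613 FPKM across PaS wt and 689 to 749 FPKM across PaS ko libraries, with 2 of 4 tested called higher and none lower. These were Cfd, from 2.64 ± 0.351 to 32.8 ± 2.31 FPKM, and Fabp4, from 112 ± 5.81 to 153 ± 6.16 FPKM. Most of the adipocyte sum was Adipoq, at 465 ± 4.67 and 494 ± 22.0 FPKM, whereas Plin1, Lep and Plin4 were below 1 FPKM in all 12 libraries. Of the genes of the PaS gate itself, Pdgfra was called lower, from 142 ± 6.64 to 111 ± 4.57 FPKM. Ly6a was not called, at -0.33 on the log2 scale (limma adjusted p = 0.26). Of the 11 genes that mark either population, Cd34, Pi16 and Dpp4 were also called lower, none was called higher and 7 were not called. The part of these in the members' differences was not tested, and in bulk samples fewer cells of a type and less RNA per cell cannot be told apart.

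In CAR cells the same comparison gave fewer calls. In ko libraries 2 of 10 members were lower, Col4a2 and Nid1, and none was higher. Among all tested genes 5.74% were called lower and 6.51% higher, so the members' share rests on 2 genes. The median log2 fold change was -0.16, against 0.01 for all tested genes. Col4a2 had 68.1, 62.5 and 67.6 FPKM across the CAR wt libraries and 49.8, 55.1 and 51.2 FPKM across the CAR ko ones. The groups did not overlap and the log2 fold change was -0.34 (SE 0.07; limma adjusted p = 0.0043). Nid1 had 69.6, 73.7 and 67.5 FPKM across wt and 61.4, 57.0 and 53.1 FPKM across ko libraries, again without overlap, and a log2 fold change of -0.29 (SE 0.06; limma adjusted p = 0.0062).

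The other 8 members did not pass the test in CAR cells. Col4a1 had 124, 131 and 115 FPKM across wt and 108, 123 and 119 FPKM across ko libraries, with overlapping groups and a log2 fold change of -0.08 (95% confidence interval -0.23 to 0.07, adjusted p = 0.56). Col18a1 had 7.70, 8.42 and 6.30 FPKM across wt and 5.50, 5.66 and 5.70 FPKM across ko libraries, and every ko library lay below every wt library. Its log2 fold change was -0.35 (95% confidence interval -0.59 to -0.10, adjusted p = 0.061), and over the alternatives its adjusted p ran from 0.024 to 0.21, with the lowest value without CAR wt replicate 3. Lamc1 had 31.4, 35.2 and 31.2 FPKM across wt and 28.3, 30.0 and 27.9 FPKM across ko libraries (a log2 difference of -0.17, limma adjusted p = 0.17). Lamb1 had 46.1, 53.6 and 39.6 FPKM across wt and 45.5, 38.3 and 33.2 FPKM across ko libraries (a log2 difference of -0.25, limma adjusted p = 0.21). Lama4 at 34.9, 34.3 and 30.4 FPKM across wt and 32.7, 28.7 and 29.4 FPKM across ko libraries had a log2 fold change of -0.13 (limma adjusted p = 0.40). Nid2 at 34.2, 36.8 and 31.3 FPKM across wt and 32.7, 29.6 and 29.6 FPKM across ko libraries had -0.15 (limma adjusted p = 0.39). Hspg2 and Lama2 were the members with positive estimates. Hspg2 had 4.23, 4.33 and 3.32 FPKM across wt and 5.08, 5.29 and 4.55 FPKM across ko libraries, with every ko library above every wt library and a log2 fold change of 0.27 (95% confidence interval -0.03 to 0.57, adjusted p = 0.26). Lama2 had 1.39, 1.67 and 1.10 FPKM across wt and 1.48, 1.65 and 1.51 FPKM across ko libraries, with overlapping groups. In all, 5 of 10 members had groups that did not overlap, where 29.9% of all tested genes did.

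Beside these values, the 12 blood-cell markers summed to 11087 to 12806 FPKM across CAR wt and 5285 to 5669 FPKM across CAR ko libraries, and all 12 were called lower. The endothelial markers summed to 26.2 to 28.6 FPKM in wt and 35.7 to 39.5 FPKM in ko libraries, with Cldn5 and Plvap called higher and Cdh5, Tek, Kdr and Flt1 below 1 FPKM in every CAR library. The pericyte and smooth muscle markers summed to 51.3 to 55.2 FPKM in wt and 47.2 to 55.4 FPKM in ko libraries, with 1 of 10 tested called higher (Cspg4) and 1 lower (Abcc9). The adipocyte markers summed to 1855 to 1990 FPKM in wt and 1536 to 1547 FPKM in ko libraries, with 1 of 4 tested called lower, Adipoq, from 1854 ± 69.3 to 1453 ± 10.0 FPKM. The Schwann cell markers summed to 66.1 to 67.6 FPKM in wt and 52.9 to 63.3 FPKM in ko libraries, with none of 3 tested called. Of the 11 genes that mark either population, Kitl, Foxc1, Cd34 and Pi16 were called lower and Ly6a and Ebf1 higher. The part of these in the members' differences was not tested.

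**Figure D2:**
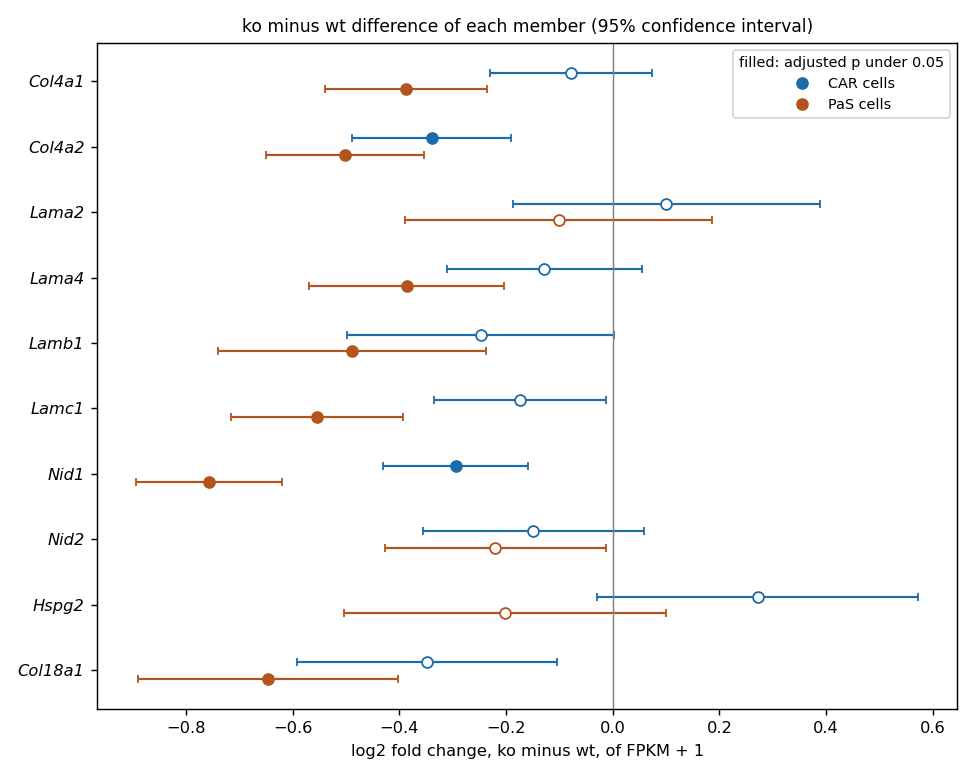
Log2 fold change of FPKM + 1, ko minus wt, for each of the 10 members in CAR and in PaS cells, with the 95% confidence interval of the limma fit; filled points passed an adjusted p of 0.05. All 10 PaS estimates lie below 0, from -0.76 for Nid1 to -0.10 for Lama2, and 8 of 10 CAR estimates do.

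Whether the genotype effect differed between the populations was tested directly, as the CAR effect minus the PaS effect. The difference was above 0 for all 10 members, with a median of 0.28 on the log2 scale against 0.02 for all tested genes, and 2 of 10 passed the test. Among all tested genes 3.32% were called higher and 3.26% lower in this test. Nid1 fell more in PaS than in CAR cells, by 0.46 (SE 0.09; limma adjusted p = 0.0054), and this was called under each alternative run, at limma adjusted p from 0.0033 to 0.018. Lamc1 had a difference of 0.38 (SE 0.11; limma adjusted p = 0.046). That call was lost with a pseudocount of 0.1, under quantile normalization and without any single library other than CAR wt replicate 2 or PaS wt replicate 3, and its adjusted p over all alternatives ran from 0.029 to 0.11. For Col4a1 the difference was 0.31 (95% confidence interval 0.09 to 0.52, adjusted p = 0.086), and it was called under quantile normalization (limma adjusted p = 0.048) and without CAR ko replicate 1 (limma adjusted p = 0.045), over a range from 0.045 to 0.19. For Hspg2 it was 0.47 (95% confidence interval 0.05 to 0.90, adjusted p = 0.20). The smallest difference was that of Nid2, at 0.07 (95% confidence interval -0.22 to 0.36, adjusted p = 0.83), and that of Lama2 was 0.20 (95% confidence interval -0.21 to 0.61, adjusted p = 0.62).

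The populations were then compared with each other. In wt libraries all 10 members differed between CAR and PaS cells, 8 lower and 2 higher in CAR cells, and no member's groups overlapped. Among all tested genes 22.7% were called lower and 20.5% higher in CAR cells, and 51.2% had groups that did not overlap. Lama2 had 1.39 ± 0.288 FPKM across CAR wt and 8.40 ± 0.346 FPKM across PaS wt libraries, a log2 fold change of -1.98 (SE 0.14; limma adjusted p = 6.7e-09). With a pseudocount of 5 this was -1.07 and with a pseudocount of 0.1 it was -2.53, so the order of the fold changes depends on the pseudocount: at 5, Nid1 had -1.61, Col18a1 -1.38 and Hspg2 -0.79. Col18a1 (-1.75, limma adjusted p = 4.1e-09), Nid1 (-1.67, limma adjusted p = 5.9e-12) and Hspg2 (-1.21, limma adjusted p = 3.8e-06) were also lower in CAR cells. Lamc1 and Lama4 had log2 fold changes of -0.87 and -0.72, and Col4a1 and Col4a2 of -0.37 and -0.33.

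Nid2 and Lamb1 were the members higher in CAR cells. Nid2 had 34.2, 36.8 and 31.3 FPKM across CAR wt and 21.5, 23.3 and 20.5 FPKM across PaS wt libraries, with every CAR library above every PaS library, and a log2 fold change of 0.62 (SE 0.10; limma adjusted p = 7.7e-05). Lamb1 had 46.1, 53.6 and 39.6 FPKM across CAR wt and 36.6, 36.0 and 32.5 FPKM across PaS wt libraries (a log2 difference of 0.39, adjusted p = 0.014). This call was lost without CAR wt replicate 2 (adjusted p = 0.079) and without PaS wt replicate 3 (adjusted p = 0.059), over a range from 0.0044 to 0.079. Endothelial markers moved with the population too: all 11 tested were called lower in CAR wt than in PaS wt libraries, and the sums of all 12 were 26.2 to 28.6 FPKM and 99.6 to 112 FPKM. Blood-cell marker sums were 11087 to 12806 FPKM and 20931 to 24012 FPKM, and the part of either in the members' differences was not tested.

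In ko libraries 6 members were lower and 2 higher in CAR than in PaS cells, among 19.8% and 17.0% of all tested genes, and 9 of 10 had groups that did not overlap, where 47.9% of all tested genes did. This comparison uses the same ko libraries as the genotype comparisons above. Nid1 had a log2 fold change of -1.20 (SE 0.06; limma adjusted p = 3.7e-10) and Col18a1 of -1.45 (SE 0.11; limma adjusted p = 4.6e-08), Lama2 of -1.78 (limma adjusted p = 2.8e-08), Hspg2 of -0.74 (limma adjusted p = 5.8e-04), Lamc1 of -0.49 (limma adjusted p = 7.5e-05) and Lama4 of -0.46 (limma adjusted p = 4.9e-04). With a pseudocount of 5 the values were -0.96 for Lama2 and -0.49 for Hspg2, both still called. Nid2 was higher in CAR cells by 0.70 (limma adjusted p = 2.9e-05) and Lamb1 by 0.63 (limma adjusted p = 4.9e-04). Col4a1 had 117 ± 8.0 FPKM in CAR ko and 122 ± 8.12 FPKM in PaS ko libraries, with a log2 fold change of -0.06 (95% confidence interval -0.21 to 0.09, adjusted p = 0.55). Col4a2 had 52.0 ± 2.72 and 58.7 ± 1.91 FPKM, with -0.17 (95% confidence interval -0.32 to -0.02, adjusted p = 0.067).

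**Figure D3:**
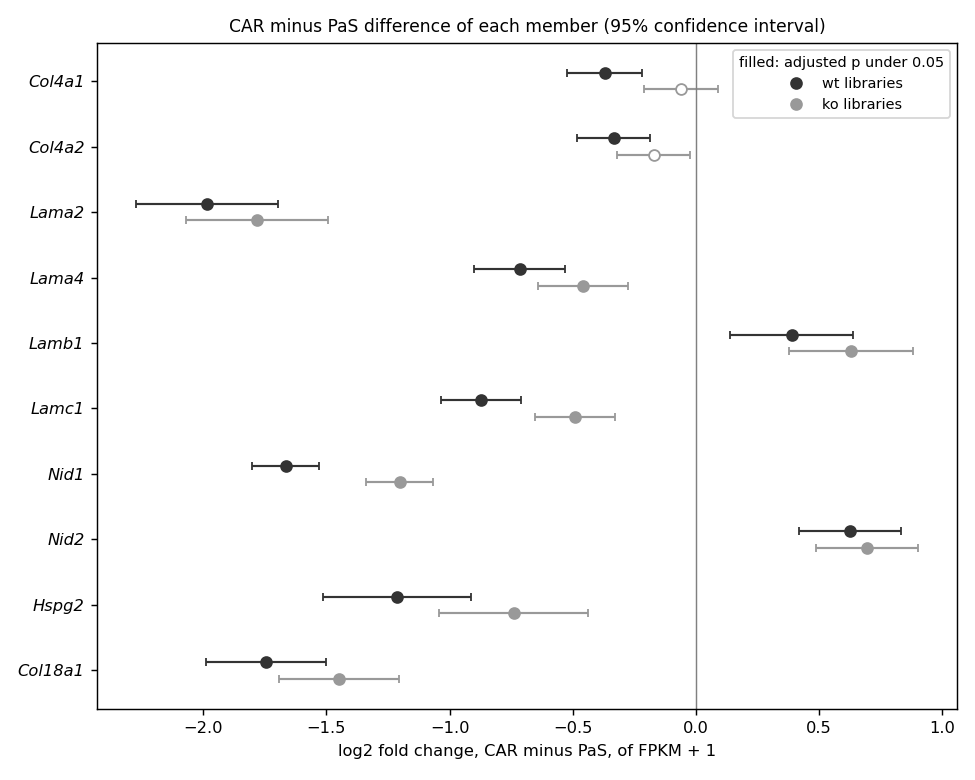
Log2 fold change of FPKM + 1, CAR minus PaS, for each of the 10 members in wt and in ko libraries, with the 95% confidence interval of the limma fit; filled points passed an adjusted p of 0.05. Nid2 and Lamb1 lie to the right of 0 and Lama2, Nid1 and Col18a1 lie farthest to the left at the pseudocount of 1 used.

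The balance between related chains was followed as a ratio of FPKM within each library. The ratio of Nid1 to Nid2 was 2.06 ± 0.0817 in CAR wt, 1.87 ± 0.0656 in CAR ko, 10.4 ± 0.534 in PaS wt and 7.20 ± 0.802 in PaS ko libraries. No PaS ko library, at most 7.78, reached the lowest PaS wt library, at 9.76. The ratio of Lama4 to Lama2 was 24.5 ± 3.66 in CAR wt, 19.7 ± 2.33 in CAR ko, 6.58 ± 0.429 in PaS wt and 5.41 ± 0.337 in PaS ko libraries. The ratio of Col4a1 to Col4a2, whose products assemble into a heterotrimer with more of the former, was 1.87 ± 0.203 in CAR wt, 2.24 ± 0.0848 in CAR ko, 1.91 ± 0.153 in PaS wt and 2.07 ± 0.0904 in PaS ko libraries. In all, 9 comparisons of log2 ratios were tested with exact two-sided permutation tests, whose smallest p with 3 against 3 libraries is 0.1, so none could pass 0.05. Of the 9 exact permutation tests, 6 reached p = 0.1 (0.15 after Benjamini-Hochberg adjustment): the 3 for Nid1 to Nid2, the CAR to PaS and PaS ko to wt comparisons for Lama4 to Lama2, and CAR ko to wt for Col4a1 to Col4a2. The ratio of Col4a1 to Col4a2 in wt CAR and wt PaS libraries gave an exact permutation p = 0.8.

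**Figure D4:**
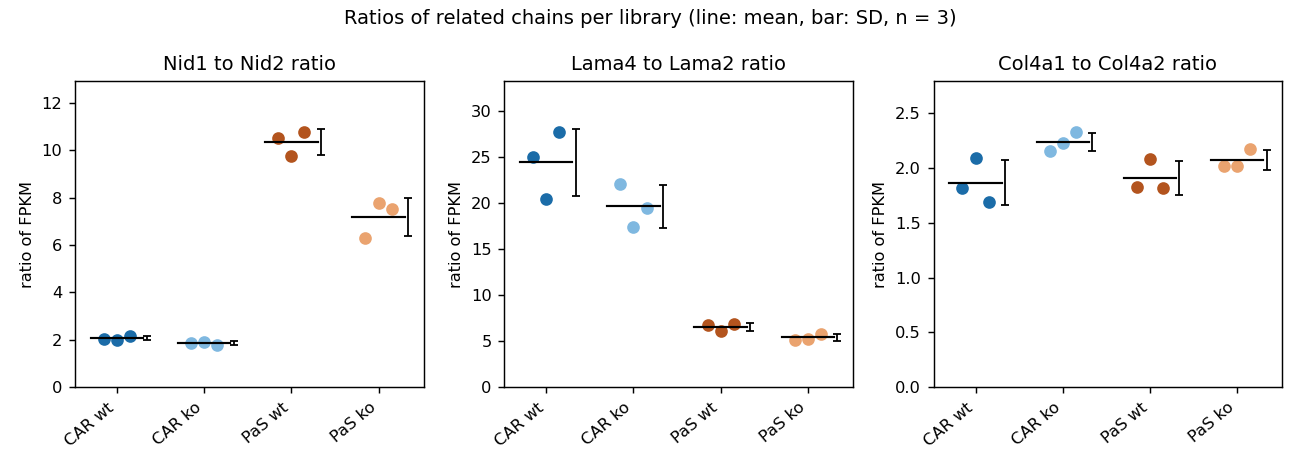
Ratio of FPKM of related chains in each of the 12 libraries, on linear axes from 0, with the group mean as a line and the SD as a bar. The Nid1 to Nid2 ratio is 9.76 to 10.8 in PaS wt, 6.28 to 7.78 in PaS ko and 1.79 to 2.16 in all CAR libraries.

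The genes whose pattern over the 12 libraries was most like the mean of the members' standardized log2 values were Fbn1, the microfibril protein fibrillin-1 (Pearson r = 0.98), Padi4 (0.97), Pou2f2 (0.96), Card10 (0.96) and Cldn9 (0.96). Fbn1 had 52.5 ± 5.02 FPKM in CAR wt, 44.5 ± 3.58 in CAR ko, 90.7 ± 2.03 FPKM across the PaS wt libraries and 58.6 ± 1.85 FPKM across the PaS ko ones. For single members the nearest gene was Triobp for Nid1 (0.99), Anxa3 for Col18a1 (0.99), Htra3 for Lama2 (1.00), Kdr for Hspg2 (0.99), Gldn for Lamc1 (0.98), Upf1 for Lama4 (0.98), Nrp1 for Nid2 (0.98) and Il1r1 for Lamb1 (0.95). For the type IV collagen chains it was Camp, which encodes an antimicrobial peptide of granulocytes, for Col4a2 (0.98), and Gca, which encodes grancalcin, for Col4a1 (0.95). These correlations were taken over 12 libraries that share 4 groups, and they are descriptions.

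Other genes of the basement membrane were counted from lists, to be read against the shares of all tested genes called: 6.51% higher and 5.74% lower in CAR ko and 3.41% higher and 4.03% lower in PaS ko libraries. Of 13 further chains, 6 were tested, and the other 7 (Col4a3, Col4a4, Col4a6, Lama3, Lama5, Lamb3 and Col7a1) had mean levels under 1 FPKM in every group. In PaS cells 2 of the 6 fell with the ko genotype and none rose, where 4.03% of all tested genes fell. Col4a5, a type IV collagen chain of a separate network, had 10.5, 12.2 and 11.4 FPKM across the PaS wt libraries and 5.22, 4.85 and 5.66 FPKM across the PaS ko ones (a log2 difference of -0.99, limma adjusted p = 2.7e-04), and 0.125 ± 0.0180 FPKM in CAR wt libraries. Lamb2, the beta2 laminin chain, had 113, 106 and 106 FPKM across the PaS wt libraries and 67.2, 83.8 and 81.8 FPKM across the PaS ko ones (a log2 difference of -0.48, limma adjusted p = 9.3e-04). In PaS wt libraries its level was thus above that of Lamb1, while in CAR wt libraries, at 41.2 ± 1.24 FPKM, its range lay within that of Lamb1. In CAR cells 1 of the 6 rose with the ko genotype, Col15a1, a relative of Col18a1, from 1.93 ± 0.406 to 3.57 ± 0.613 FPKM, and none fell. The median log2 fold change of the 6 was -0.35 in PaS and 0.13 in CAR cells. Col4a5 (1.15, limma adjusted p = 0.0021) and Col15a1 (0.76, limma adjusted p = 0.038) also differed between the populations in their genotype effects. Col4a5 was near 0 in CAR cells, also in ko libraries (0.264 ± 0.0618 FPKM). A fall there could not be seen, so its difference rests on the PaS fall. Between wt CAR and wt PaS cells all 6 differed, 5 lower and 1 higher in CAR cells, where 22.7% and 20.5% of all tested genes did.

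Proteins that associate with basement membranes went in both directions. Of 14 tested of 18, 6 rose and 1 fell in CAR ko libraries (median 0.11), and 3 rose and 3 fell in PaS ko libraries (median -0.04). Of all tested genes 6.51% rose and 5.74% fell in CAR ko libraries, and 3.41% rose and 4.03% fell in PaS ko libraries. Sparc, a matrix glycoprotein that binds type IV collagen, rose in CAR cells from 4809.8 ± 107 to 7359 ± 913 FPKM, and Egfl6 rose by 1.27 and Smoc2 by 0.48 on the log2 scale. In PaS cells Ecm1 fell from 1498 ± 51.8 to 981 ± 53.8 FPKM, Smoc1 rose by 0.70 and Fbln1, fibulin-1, by 0.46. Fbln1 was called lower in CAR ko libraries, at -0.32, and the genotype effects differed between the populations (-0.78, limma adjusted p = 1.6e-04). Between wt CAR and wt PaS cells 9 were lower and 4 higher in CAR cells (22.7% and 20.5% of all tested genes), with Fbln2 at 5.10 ± 0.613 and 205 ± 8.40 FPKM.

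Of 19 tested receptors, 5 rose and 1 fell in CAR ko libraries (median 0.21) and 4 rose and 2 fell in PaS ko libraries (median 0.09). Against 6.51% and 5.74% of all genes in CAR and 3.41% and 4.03% in PaS cells, the 1 receptor of 19 that fell in CAR cells is a share near the background. The syndecan Sdc3 rose in both populations, by 0.67 in CAR and 0.64 in PaS cells on the log2 scale. Itga6, the alpha6 subunit of laminin-binding integrins, was called lower in both, from 2.30 ± 0.544 to 0.874 ± 0.109 FPKM in CAR and from 8.76 ± 0.306 to 4.88 ± 1.04 FPKM in PaS cells. The collagen receptor Ddr2 fell in PaS cells by 0.42 on the log2 scale. The laminin receptor Dag1 was not called in either population, at 77.2 ± 2.68 and 69.0 ± 4.47 FPKM in PaS wt and ko libraries.

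Of 18 enzymes and chaperones of collagen and heparan sulfate assembly, all tested, 10 rose and none fell in CAR ko libraries, with a median of 0.28, where 6.51% of all tested genes rose. In PaS ko libraries 1 rose and none fell, with a median of 0.07, a share near the 3.41% of all tested genes that rose. Plod2, a lysyl hydroxylase, rose in both, by 0.76 and 0.77. Sec23a, a coat protein of the vesicles that carry procollagen, rose in CAR cells from 26.6 ± 0.524 to 44.4 ± 1.93 FPKM, and the prolyl hydroxylase subunit P4ha1 from 45.9 ± 2.66 to 67.2 ± 1.18 FPKM. In the test of the difference 6 of 18 had a higher effect in CAR cells, where 3.32% of all tested genes did, among them Sec23a, P4hb and Serpinh1, the collagen chaperone. Many of these enzymes also process fibrillar collagens. Of 12 turnover genes, 6 rose and 2 fell in CAR ko libraries and 4 rose and 1 fell in PaS ko libraries. Of all genes 6.51% and 5.74% did in CAR and 3.41% and 4.03% in PaS cells. The list holds proteases and their inhibitors together, so these counts give no direction of turnover. Those that rose were Mmp2, Mmp3, Bmp1 and the inhibitors Timp1, Timp2 and Timp3 in CAR cells. In PaS cells they were Mmp3, Ctss and the inhibitors Timp1 and Timp3. The stromelysin Mmp3 rose in both, from 26.4 ± 5.02 to 61.1 ± 2.79 FPKM in CAR and from 79.7 ± 7.10 to 209 ± 8.45 FPKM in PaS cells, and Mmp2, which cleaves type IV collagen, rose in CAR cells by 0.72 and had 0.03 (limma adjusted p = 0.81) in PaS cells. The genotype effect on Mmp2 differed between the populations (0.69, limma adjusted p = 4.7e-05). Mmp9 was called lower in both, at -0.67 in CAR and -0.71 in PaS cells on the log2 scale. Ctss was called lower in CAR cells, at -1.12, and higher in PaS cells, at 0.69. Blood-cell markers differed in the same comparisons, with all 12 called lower in CAR ko and 6 lower and 2 higher in PaS ko libraries. The part of blood cells in the Mmp9 and Ctss differences was not tested.

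**Figure D5:**
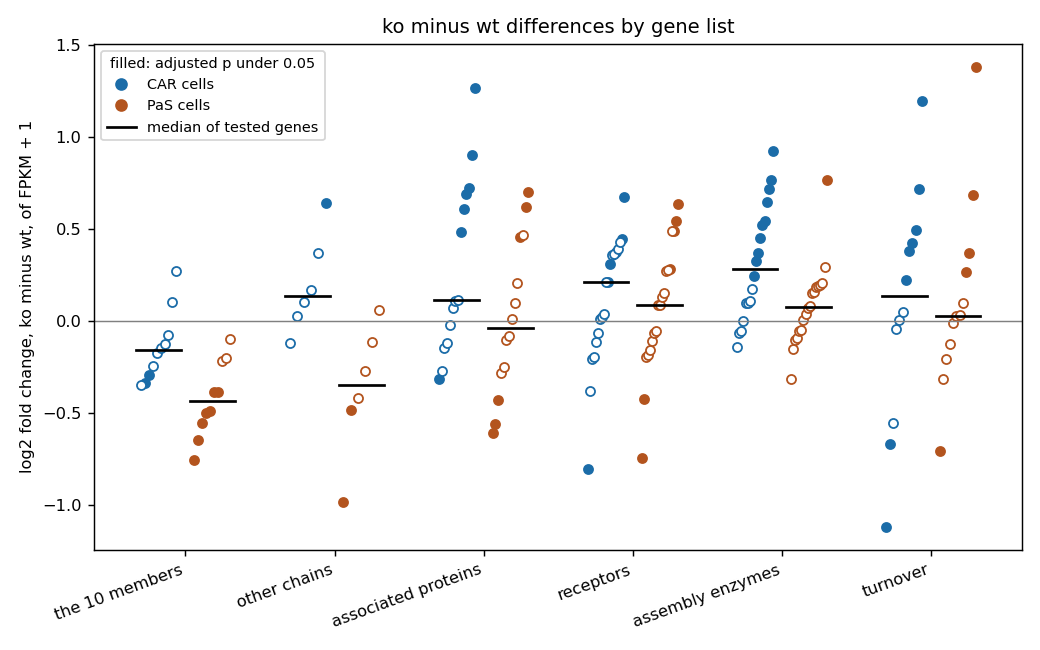
Log2 fold change of FPKM + 1, ko minus wt, of every tested gene of the 10 members and of 5 lists of basement membrane genes, in CAR and in PaS cells; filled points passed an adjusted p of 0.05 and the black line is the median of the tested genes. The members' medians are -0.16 in CAR and -0.44 in PaS cells, and those of the assembly enzymes 0.28 and 0.07.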

How the data were processed

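RNA was measured in 12 libraries made with an oligo dT enrichment and SMART-Seq v4, per the labels' protocols. The deposited values are FPKM, 1 table of 24347 gene symbols per library, and the build mm10 and the tools Cuffnorm 2.2.1, Cufflinks 2.2.1 and TopHat2 2.0.14 are named, without their settings, per the submitters' processing notes; the unit is read from the Cuffnorm tables, and the annotation and filters are not given in the sources used here. No counts are given, so depth is unknown. The 8 ATAC-seq samples of the series were not analysed here.

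The 12938 genes that reached 1 FPKM in at least 3 libraries were tested as log2(FPKM + 1), a scale that understates changes of low genes, in a 4-group model fitted in R 4.3.3 by limma 3.58.1 (eBayes with a trend; 8 residual and 6.95 prior degrees of freedom), with Benjamini-Hochberg adjustment over all genes and a threshold of 0.05; every adjusted p comes from this two-sided test. The method was tested on simulated data. Alternatives were pseudocounts of 0.1 and 5, quantile normalization, a filter of 5 FPKM and no filter, library weights, scaling by median ratios, only the groups compared, values of 0 beside at least 100 FPKM set to missing, the replicate number as a block, and each library left out. Named genes were all members, up to 3 called genes per list and contrast by smallest p, check genes and, as likeness, genes of highest correlation. Dag1, Timp1 and the marker genes given beside results were added from the lists after their values were seen. The members and lists were chosen with earlier results of these data known. Figures were drawn with matplotlib 3.10.9.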

Additional observations from a re-analysis of the deposited data

Results flagged for a closer look

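The genotype effect differed between CAR and PaS cells for 2 members, by the test of the difference itself. For Nid1 the CAR effect minus the PaS effect was 0.46 on the log2 scale (limma adjusted p = 0.0054), and for Lamc1 it was 0.38 (limma adjusted p = 0.046). The Lamc1 call was lost under 13 of 21 alternatives, at limma adjusted p up to 0.11, and that of Nid1 under none of them.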

How the results depend on the processing

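Each of the 50 member differences (10 genes in 5 comparisons) was recomputed under 16 or 21 alternatives, 850 values in all. No called difference changed sign, 22 values lost their call and 8 gained one. In the test of the difference between genotype effects, the number of members called was 2, and 1 with a pseudocount of 0.1 and with the replicate block; it was 1 to 2 with single libraries left out, where Lamc1 lost its call in 10 of 12 cases and Nid1 kept it. Members called with single libraries left out were 2 to 3 in CAR cells, 5 to 7 in PaS cells, 9 to 10 between wt populations and 8 to 9 between ko populations. The log2 ratio of Col4a1 to Col4a2 between wt CAR and wt PaS libraries was -0.0341, and -0.118 to 0.0337 with single libraries left out; it was above 0 without CAR wt replicate 3 (0.0337) and without PaS wt replicate 2. No pairing by replicate number was seen: same-numbered wt and ko libraries had correlations of their deviations from -0.03 to 0.11. Same-numbered CAR and PaS libraries of 1 genotype had correlations from -0.041 to 0.007. These values do not settle whether libraries shared animals. With the replicate block the members called were 2 in CAR and 7 in PaS cells, 10 between wt and 8 between ko populations; apart from Lamc1 in the test of the difference, no member call changed. Col18a1 in CAR cells was called with a pseudocount of 0.1 (limma adjusted p = 0.0495), a filter of 5 FPKM (0.0497) and library weights (0.044), and not in the fit reported, with a pseudocount of 1, a filter of 1 FPKM and no weights (0.061). The causes were not tested. The read depth is unknown, so how far it limits each member cannot be given.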
